A study of Mus musculus with 6 samples.

Results

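Mouse cells labelled as CD4+CD25+ T cells were examined here for 10 transcription factors that set T cell identity and quiescence. They are the Id2 and Id3 pair, Bach2, Tcf7, Lef1, Satb1, Bcl11b, Tox, Foxo1 and Foxp1, and a probe set was taken wherever the platform annotation named exactly 1 of these symbols. Of the 10 genes 9 were measured, by 23 of 22626 probe sets, and 5 of them had more than 1 probe set. Tcf7 was not analysed here because no probe set carried its symbol. All 9 genes were read above background in both groups, so none was lost to a filter on low values.

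The series holds 6 Affymetrix Mouse430a arrays of total RNA, 3 per group, all labelled as C57BL6 mice and as CD4+CD25+ regulatory T cells. The control samples carry the genotype label wild type. The genotype of the others, HDAC3-fl/fl_FOXP3cre, names floxed alleles of the histone deacetylase gene Hdac3 together with a Foxp3 Cre, and these samples are referred to as Hdac3 deleted. A Cre under Foxp3 control acts in cells that express Foxp3, while the labels define the cells by CD4 and CD25. Whether the wild type mice carried a Cre, and the age of any of the mice, is not given in the sources used here. One label of the Hdac3 deleted samples names Hdac11 and another gives a form that can be read in more than 1 way, whereas the title and genotype name Hdac3. Whether each sample is a separate animal is not stated, and the p-values therefore reflect only the spread among these 6 samples, which may be technical.

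Naive and resting T cells are kept quiescent by a network of transcription factors, several of which also hold the T lineage program in place. E proteins are basic helix-loop-helix activators, and Id proteins pair with them and keep them off DNA. Tcf7 and Lef1 are HMG box factors that act with beta-catenin and Groucho corepressors, Bach2 restrains effector genes, and Foxo1 drives homing and survival genes until Akt signalling removes it from the nucleus.

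Values are log2 expression after robust multiarray average (RMA) normalization. Means are shown with the SD over the 3 samples of a group, and every difference subtracts the wild type mean from the Hdac3 deleted mean. A gene was read from its brightest probe set, the one with the highest mean over all 6 samples of both groups. It is said to rise or fall where limma gave an adjusted p under 0.05 over all 22626 probe sets. The factors fell almost together. Of the 9 measured genes 8 fell and 1, Id2, rose, against 38.0% of 12393 genes lower and 22.0% higher in the same fit. At least 2-fold falls were seen for 7 of the 9, against 4.46% of all genes, and Id2 rose at least 2-fold, against 9.04%. The counts of 8 and 1 were also those after median centring of the arrays, where 57.8% of all genes were lower and 17.6% higher, and after cyclic loess, where 22.6% were lower and 29.3% higher. Past 2-fold, median centring gave 7 genes lower and 1 higher, against 7.00% and 7.95% of all genes, and cyclic loess gave 6 and 1, against 2.84% and 10.8%. The median difference over the 9 genes was -1.46, while that over all genes was -0.17. Of the 23 probe sets 20 were lower and 3 higher, against 37.4% and 20.1% of all probe sets, and the 3 values of each group did not overlap in any of the 23. Such a gap between groups was seen in 67.4% of all genes.

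Several facts of the whole series stand beside these differences. Correlation between samples was 0.996 to 0.998 within groups and 0.921 to 0.923 between them. Hdac3 itself fell from 9.04 ± 0.028 to 8.49 ± 0.024, a difference of -0.55, where 38.0% of all genes were lower. The position of its probe set relative to the floxed exons is not given in the sources used here. Hdac11, which 1 label names, measured 5.47 ± 0.063 and 4.89 ± 0.147, a difference of -0.58 (adjusted p = 0.000996) that ends in the background range, so these values do not settle between the labels. Foxp3 stayed inside the range of 27 bacterial control probe sets (2.37 to 5.16), so the labelled cell type could not be checked by it. The genes of the labelled markers were read above that range in both groups. Il2ra, the gene of CD25, rose from 9.25 to 9.96 (adjusted p = 4.17e-05), and Cd4 fell from 10.19 to 9.17 (adjusted p = 9.29e-06). The CD3 genes of the T cell receptor complex, by which T cells are recognised, were bright in every sample. They fell by 1.47 on average, further than Hdac3. All 17 macrophage markers and all 11 measured neutrophil markers rose, against 22.0% of all genes. The mean over the macrophage markers was 5.16 to 5.24 in wild type and 11.39 to 11.48 in the Hdac3 deleted samples, and over the neutrophil markers 4.68 to 4.99 and 10.36 to 10.39. In wild type 9 of the 17 macrophage markers lay in the background range, among them Adgre1, Mertk and Mrc1, and none did in the Hdac3 deleted samples. The part of these cells in the differences below was not tested. In pooled RNA, fewer T cells and less RNA per T cell cannot be told apart. The 3' minus 5' signal of the Gapdh control was 0.20 to 0.51 in wild type and 0.48 to 0.52 in the Hdac3 deleted samples.

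**Figure D1:**
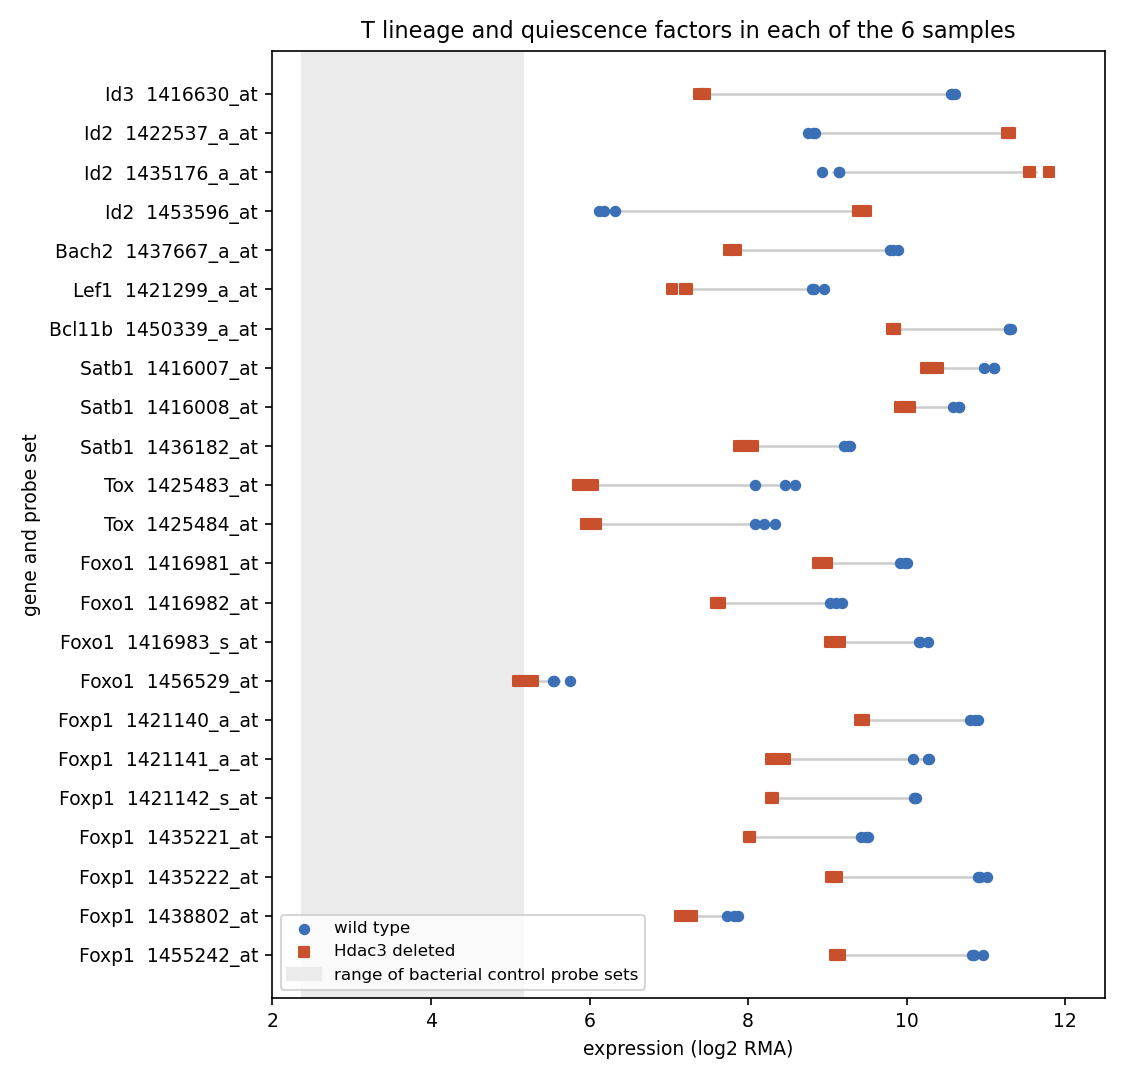
Log2 RMA expression (horizontal) of each of the 23 probe sets (vertical, with gene and probe set name) in every sample, with wild type as circles, Hdac3 deleted as squares and a line joining the group means. The groups are apart in every row, Id2 is the only gene whose squares lie to the right, and 1 dim Foxo1 probe set (5.61 and 5.20) borders the shaded range of the bacterial controls (2.37 to 5.16).

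The Id pair moved in opposite directions. Id3, an inhibitor of E proteins that is abundant in naive and regulatory T cells, measured 10.61, 10.56 and 10.58 in wild type samples. It measured 7.37, 7.46 and 7.44 in the Hdac3 deleted samples. All Hdac3 deleted values thus lay far below all wild type values. The fall was 3.16 (SE 0.058, adjusted p = 2.57e-08), which is 8.94-fold, and 0.0888% of all genes had a difference as low or lower. Its 1 probe set gives no check by a second one.

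Id2, the inhibitor associated with effector and innate lymphoid cells and also made by cells of the myeloid lineage, measured 8.94, 9.15 and 9.14 in wild type samples with its brightest probe set. It measured 11.54, 11.80 and 11.55 in the Hdac3 deleted samples, above every wild type value. The rise was 2.55 (SE 0.098, adjusted p = 8.57e-07), or 5.87-fold, and 3.16% of all genes had a difference as high or higher. A second Id2 probe set (1422537_a_at) gave 8.81 ± 0.043 and 11.29 ± 0.022. Another (1453596_at) went from 6.20 ± 0.105 to 9.44 ± 0.049, a rise of 3.24, which exceeded the rise of the brightest set by 0.68 (SE 0.096, adjusted p = 0.00126). All 3 sets agree on the direction, and the size depends on the set by a factor between 5.58 and 9.43.

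Because the pair moved apart, the bases before their starts are shown, from RefSeq on build GRCm38.p6, each 250 bases long and read 5′ to 3′ on the gene's strand. Capitals mark any match to CANNTG, the E-box that E proteins bind (the search covers both strands, since the motif reads the same on each), to the TCF/LEF letters CTTTGAA or CTTTGAT, or to the forkhead letters GTAAACA, the last 2 kinds on either strand. Bcl11b is added as the gene of the 3 with TCF/LEF letters. The stretches are chr12:25096093-25096342 on the minus strand for Id2, chr4:136143572-136143821 on the plus strand for Id3 and chr12:108003415-108003664 on the minus strand for Bcl11b.
Id2: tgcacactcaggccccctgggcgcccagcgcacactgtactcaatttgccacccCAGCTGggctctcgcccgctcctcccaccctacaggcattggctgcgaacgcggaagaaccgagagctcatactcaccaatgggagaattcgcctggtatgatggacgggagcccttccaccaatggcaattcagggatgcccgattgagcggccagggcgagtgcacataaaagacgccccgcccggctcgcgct
Id3: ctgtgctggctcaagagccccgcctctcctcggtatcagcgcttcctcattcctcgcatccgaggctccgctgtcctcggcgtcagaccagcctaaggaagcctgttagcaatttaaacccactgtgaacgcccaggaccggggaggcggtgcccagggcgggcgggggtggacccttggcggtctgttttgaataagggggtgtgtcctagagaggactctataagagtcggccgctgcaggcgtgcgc
Bcl11b: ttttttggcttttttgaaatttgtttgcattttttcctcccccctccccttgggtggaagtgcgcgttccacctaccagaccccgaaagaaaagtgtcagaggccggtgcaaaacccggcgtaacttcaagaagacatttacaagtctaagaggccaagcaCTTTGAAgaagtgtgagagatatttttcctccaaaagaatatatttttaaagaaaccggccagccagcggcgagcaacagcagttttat
The Id2 stretch holds 1 E-box and the Id3 stretch none. Windows of 250 bases before to 50 after a start were found for 9 of the 10 genes, 19 windows in all, and not for Tox. An E-box lay in 15 of the 19 windows, from 6 genes (Foxo1, Foxp1, Id2, Lef1, Satb1 and Tcf7), while 72.3% of all 32851 promoter windows hold one. TCF/LEF letters lay in 2 of the 19, from Bcl11b and Foxp1, against 8.65% of all windows, and the forkhead letters in 1, from Tcf7, against 3.65%. Windows of 1 gene can overlap and share a match, and the matches are letters in a window and no more.

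The partners of the Id proteins did not move as a block. The 5 measured genes were the 3 E protein genes Tcf3, Tcf4 and Tcf12 and the other Id genes Id1 and Id4. Of these 1 fell and 2 rose, against 38.0% and 22.0% of all genes, with a median of 0.07. Tcf12 fell from 9.65 to 8.88. Tcf3, the gene of E2A, was 9.21 in wild type and 9.07 in the Hdac3 deleted samples (adjusted p = 0.0946), although both of its dimmer probe sets were called lower and median centring called it too. Tcf4, an E protein best known from plasmacytoid dendritic cells and B cells, rose from 5.39 to 7.48, and 1 of its 6 probe sets lay in the background range in both groups. Id1 was at least 2.15-fold higher, measured from the top of the background range, since its wild type mean lay inside it. Id4 lay in that range in both groups.

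Bach2, a repressor that keeps T cells from effector differentiation, was among the deeper falls. Wild type samples measured 9.80, 9.89 and 9.83 and Hdac3 deleted samples 7.76, 7.77 and 7.85. The groups lay about 4-fold apart with little spread within either. The difference was -2.05 (SE 0.061, adjusted p = 2.46e-07), a 4.13-fold fall that 0.436% of all genes matched or exceeded. Genes tied to Bach2 went mostly the other way. Of 7 partners, paralogs and counterparts 6 rose and 1 fell, against 22.0% and 38.0% of all genes, with a median of 0.91. Hmox1, the heme oxygenase gene that BACH proteins repress, rose by 5.65, from 6.14 to 11.80. Bach1, the paralog, rose by 1.13, its small Maf partner Mafg by 1.46 and Nfe2l2, which competes for the same sites, by 0.85. Prdm1, which encodes Blimp-1 and is a known target of Bach2, rose from 7.37 to 8.27. Mafk fell by 0.28, a call that cyclic loess did not give (-0.10), and the call of Maff (0.57) was not given by median centring (0.41). Macrophage markers rose in the same samples by a median of 7.08.

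Lef1, an HMG box factor of naive T cells, measured 8.80, 8.96 and 8.84 in wild type samples. Hdac3 deleted samples measured 7.04, 7.22 and 7.21. The highest Hdac3 deleted value stood well below the lowest wild type value. Its fall was 1.71 (SE 0.078, adjusted p = 2.03e-06), or 3.27-fold. Among 9 partners and paralogs of the TCF/LEF factors 5 fell and 2 rose, against 38.0% and 22.0% of all genes. Their median was -0.25. Axin2, a common target of beta-catenin with TCF/LEF, fell by 1.44, from 8.28 to 6.84, and its second probe set lay in the background range. The Groucho family genes Tle5 and Tle3 fell by 0.92 and 0.55. Tle1 was called lower (-0.25) but not with cyclic loess (-0.07), and Tle2, counted among the 5, lay in the background range in both groups, so its direction is not readable. The paralog Tcf7l2, which in blood cells is best known outside the T lineage, went the other way and was at least 17.3-fold higher, at 9.27 in the Hdac3 deleted samples and 3.70, within background, in wild type. Ctnnb1, the beta-catenin gene, rose by 0.49.

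Bcl11b, a zinc finger factor required for T lineage commitment, was steady within groups. Wild type samples gave 11.30, 11.29 and 11.32 and Hdac3 deleted samples 9.81, 9.86 and 9.85. No value of one group came near the other. The fall of 1.46 (SE 0.055, adjusted p = 8.07e-07) was 2.75-fold.

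Satb1, a chromatin organiser needed for the thymic program, fell least among the genes by its brightest probe set. That set read 11.10, 11.11 and 10.97 in wild type and 10.30, 10.40 and 10.25 in the Hdac3 deleted samples. The groups were separate, and the fall of 0.74 (SE 0.070, adjusted p = 8.96e-05) stayed short of 2-fold. A second set gave -0.65, and the remaining one (1436182_at) gave -1.29, from 9.26 ± 0.040 to 7.97 ± 0.093. This last set fell further than the brightest by 0.55 (SE 0.091, adjusted p = 0.00308), so whether Satb1 passes a 2-fold threshold depends on the set.

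Tox, an HMG box factor of thymocyte and CD4 T cell development, was the second deepest fall by its brightest set. Wild type samples spread more than for any other gene of the list, at 8.09, 8.59 and 8.46, and Hdac3 deleted samples measured 5.92, 5.86 and 6.05. Even the lowest wild type value was above all Hdac3 deleted ones. The fall was 2.44 (SE 0.132, adjusted p = 4.96e-06), and the second probe set gave 2.19 with tighter wild type values of 8.09 to 8.34. Paralogs were little informative, since Tox4 differed by 0.06 (adjusted p = 0.459) and Bcl11a, called higher by 0.48, lay in the background range in both groups.

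Foxo1, the forkhead factor of naive T cell homing and survival, fell in all 4 of its probe sets. The brightest read 10.17, 10.16 and 10.27 in wild type and 9.11, 9.16 and 9.03 in the Hdac3 deleted samples. These values do not overlap and differ by -1.10 (SE 0.066, adjusted p = 8.56e-06), or 2.15-fold. With cyclic loess the difference was -0.90, short of 2-fold. A second set of similar brightness gave -1.04 and another (1416982_at) gave -1.49, further than the brightest by 0.38 (SE 0.086, adjusted p = 0.0120). The dimmest, which borders background at 5.61 and 5.20, gave -0.41 and was not called with cyclic loess (-0.23, adjusted p = 0.0684).

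Foxp1, a forkhead factor that keeps naive T cells quiescent, fell in all 7 of its probe sets, by 0.58 to 1.86. Its brightest set read 10.86, 10.90 and 10.80 in wild type and 9.45, 9.42 and 9.47 in the Hdac3 deleted samples. The gap between groups was many times the spread within them. The fall of 1.41 (SE 0.058, adjusted p = 1.28e-06) was 2.66-fold. In wild type alone, 1435222_at (10.94) and 1455242_at (10.88) read above this set (10.86), and they fell by 1.86 and 1.75. Of the other 6 sets 4 fell further than the brightest by 0.34 to 0.45, 1 fell less by 0.83 (1438802_at, from 7.81 ± 0.068 to 7.23 ± 0.076), and 1 was not told apart from it (difference -0.05, SE 0.089). Over all genes 29.1% of such further probe sets changed by an amount that differed from the brightest, and over the list it was 9 of 14.

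**Figure D2:**
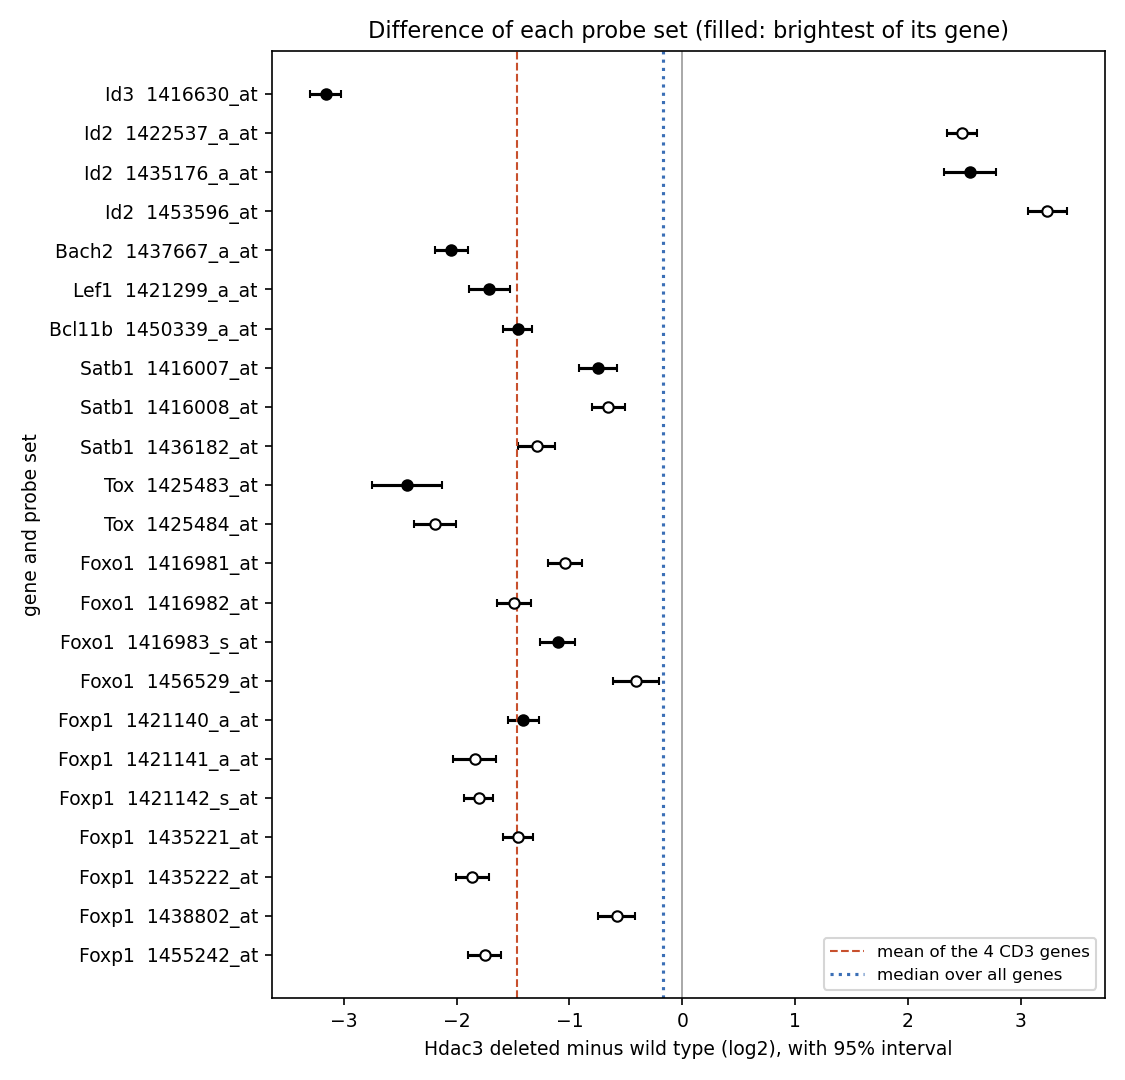
Difference between groups (horizontal, log2, Hdac3 deleted minus wild type) with its 95% limma interval for each of the 23 probe sets (vertical), filled for the brightest set of a gene. The falls run from -0.41 to -3.16, and the dashed line marks the mean fall of the CD3 genes (-1.47) and the dotted line the median of all genes (-0.17).

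In order of depth the falls were Id3, Tox, Bach2, Lef1, Bcl11b, Foxp1, Foxo1 and Satb1, read from the brightest sets. Neighbours in this order were not tested against each other. The 95% interval of Tox (-2.75 to -2.13) overlapped that of Bach2 (-2.19 to -1.90), that of Lef1 (-1.89 to -1.53) overlapped that of Bcl11b (-1.59 to -1.33), and that of Bcl11b overlapped that of Foxp1 (-1.55 to -1.27). Id3 stood apart from Tox, with an interval of -3.30 to -3.02.

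Set against the CD3 genes of the same array, the brightest sets of the factors gave 3 kinds of call. On this scale, chosen with the CD3 fall already known, 97.6% of all genes were called higher, 0.936% lower, and the median over all genes was 1.30. Id3, Tox, Bach2 and Lef1 fell further than the CD3 genes, by 1.69 (SE 0.070, adjusted p = 1.98e-07), 0.97 (SE 0.119, adjusted p = 7.09e-05), 0.58 (SE 0.065, adjusted p = 4.15e-05) and 0.24 (SE 0.079, adjusted p = 0.0167). The call of Lef1 was lost without wild type replicate 2 (-0.22, adjusted p = 0.0503) and without Hdac3 deleted replicate 1 (-0.18, adjusted p = 0.0640). Bcl11b and Foxp1 gave 0.01 (95% interval -0.14 to 0.16) and 0.06 (-0.09 to 0.21) and were not called. Foxo1 and Satb1 fell less than the CD3 genes, by 0.36 and 0.72, and Id2 was higher by 4.02. T cell genes also spread on this scale. Cd3d, part of the reference, was called higher (0.26). Of 5 T cell surface genes Cd27 (-0.30) and Cd28 (-0.23) were called lower and Cd5 (0.16), Cd2 (0.48) and Cd6 (0.68) higher. Lef1, Bcl11b, Foxp1 and Foxo1 lay within that span, Satb1 just above it, and Id3, Tox and Bach2 below it. The SEs reflect the spread among arrays, not that among reference genes.

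Part of this grouping depends on the probe set or the reference. Relative to the CD3 genes 4 of the 7 Foxp1 sets were lower, 1 was higher and 2 were not called. Of the 4 Foxo1 sets 3 were higher and 1 was not called, and of the 3 Satb1 sets 2 were higher and 1 was not called. Both Tox sets were lower and all 3 Id2 sets higher. Against 5 T cell surface genes in place of CD3 (Cd2, Cd5, Cd6, Cd27 and Cd28), which fell by 1.31 on average, Bcl11b was lower by 0.15 (adjusted p = 0.0469), and the calls of the other 8 genes were as against CD3.

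**Figure D3:**
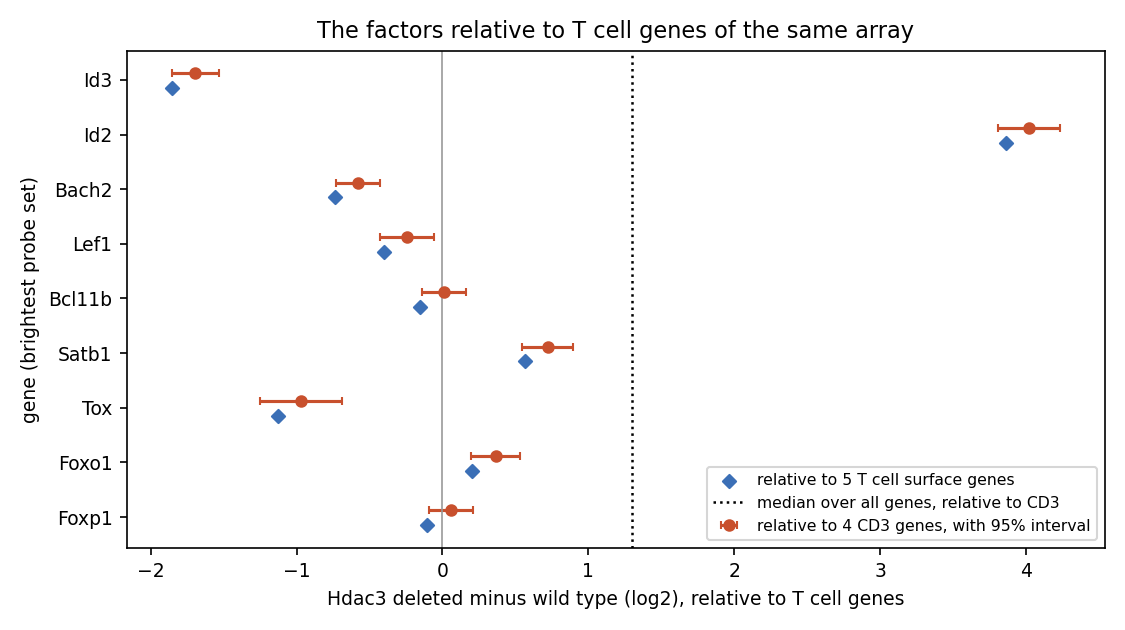
Difference between groups (horizontal, log2) of each gene's brightest probe set (vertical) after the mean of the 4 CD3 genes (circles, with 95% interval) or of 5 T cell surface genes (diamonds) was subtracted in each array. Id3, Tox, Bach2 and Lef1 lie left of 0, Bcl11b and Foxp1 close to 0, Satb1 and Foxo1 right of 0 but left of the median of all genes (1.30, dotted), and Id2 at 4.02.

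FoxO target genes mostly fell, as Foxo1 did. Among the 11 FoxO target genes with a probe set, 9 fell and 1 rose, against 38.0% and 22.0% of all genes. Their median was -0.92. Sesn3, a stress-induced sestrin gene, fell from 10.13 to 8.36 and was the only one called lower relative to the CD3 genes (-0.30). On that scale 8 of the 11 were called higher, as were 97.6% of all genes. Gadd45a (-0.34), chosen after its values were seen, was not called with cyclic loess (-0.16). S1pr1, the receptor for exit from lymph nodes, fell by 1.55, Sesn1 by 0.95 and the homing receptor gene Ccr7 by 0.92. Irs2, an adaptor of insulin signalling and the 1 gene that rose, was chosen after its values were seen and rose by 0.80. Il7r, the receptor for the survival cytokine IL-7 and likewise chosen after its values were seen, was 10.57 in both groups by its brightest set (0.01, adjusted p = 0.925). It was called higher with cyclic loess (0.22) and lower with median centring (-0.15), and its second set was called lower (-0.35), so it has no settled direction.

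The paralogs and regulators of the forkhead factors went both ways. Of 8 measured, 3 fell and 2 rose, close to the 38.0% and 22.0% of all genes, with a median of -0.24. With cyclic loess 1 fell, against 22.6% of all genes. Akt2 fell by 0.44. Foxo3 (-0.36) and Foxo4 (-0.38, reaching background) were not called with cyclic loess (-0.18 and -0.19). Akt1, whose kinase moves Foxo1 out of the nucleus, rose by 0.65, and Sgk1, a kinase that acts on Foxo1 likewise, rose from 8.01 to 9.95. Foxp2 and Foxp3 lay in the background range in both groups.

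Other quiescence genes went the same way as the factors. Of 9 measured 8 fell and none rose, against 38.0% and 22.0% of all genes, with a median of -0.75. With cyclic loess Btg1 and Tsc2 were no longer called. Measured against the CD3 genes, which fell by 1.47 on average, none of the 9 was called lower and 6 were called higher. The latter call was given to 97.6% of the 12393 genes. The falls of this list were thus no deeper than that of the CD3 genes. The list shares genes with the FoxO targets, Klf2 among them, so the 2 counts are not independent. Btg2 and Tob1, antiproliferative genes, fell by 1.29 and 1.27, Klf2, a factor of T cell egress and quiescence, by 0.91, and Slfn2, whose loss breaks T cell quiescence, by 0.75. Cell cycle genes mostly rose. Of 17 measured 15 rose and 1 fell, against 22.0% and 38.0% of all genes, with a median of 1.89. Mki67, a marker of dividing cells, rose by 2.42, Birc5 by 2.07, Aurka by 2.02 and Top2a by 2.26, and the last has a second set in the background range. Tyms, counted among the 15, lay in the background range in both groups. The fall was in Pcna (-0.23, and -0.01 with cyclic loess, not called).

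Further T lineage factors mostly fell. Of 13 measured 9 fell and 2 rose, against 38.0% and 22.0% of all genes, with a median of -0.38. With cyclic loess 5 fell, against 22.6% of all genes. Gata3, the factor of helper T cells, fell by 0.94 and Ets1, a factor of T cell survival, by 0.77. Myb, a factor of progenitors and dividing cells, rose by 1.40 and Hes1, a target of Notch, was at least 2.19-fold higher. Runx1, chosen after its values were seen, was called lower by its brightest set (-0.29), not called with cyclic loess, and its 5 sets disagreed in direction, from -0.64 to 0.38. Relative to the CD3 genes all 13 were higher, on the scale where 97.6% of all genes were.

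Factors of effector differentiation, the counterpart of the quiescence program, mostly rose. Of 10 measured 7 rose and 2 fell, against 22.0% and 38.0% of all genes, with a median of 0.71. Zeb2, a factor of terminal effector T cells that macrophages also express, was at least 15.8-fold higher, at 9.14 against a wild type level inside background. Bhlhe40, a factor of cytokine output, rose by 2.06 and Prdm1 by 0.91, while Irf4, an activation-induced factor, fell by 1.31. These differences accompanied the macrophage rise, and its part in them was not tested.

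**Figure D4:**
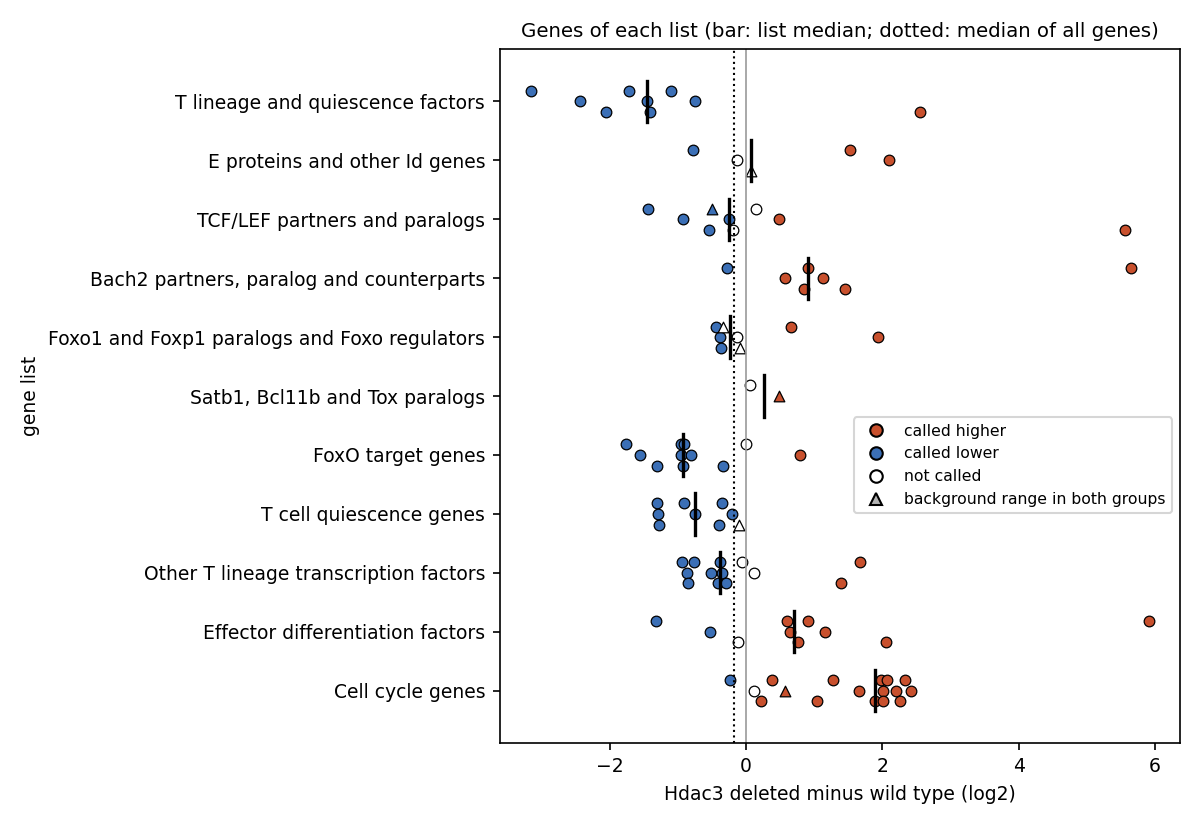
Difference between groups (horizontal, log2, Hdac3 deleted minus wild type) of every measured gene in the 11 lists (vertical), coloured by its call, with a bar at the list median, a dotted line at the median of all genes (-0.17) and triangles for genes in the background range in both groups. The T lineage and quiescence factors have the lowest median (-1.46) of the lists drawn, ahead of the FoxO target genes (-0.92). The cell cycle genes have the highest (1.89). Not drawn are the CD3 genes, with a lower median (-1.53), and the T cell surface genes (-1.30).

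Markers of other cells that the gate could hold were read beside the factors. Over all genes 22.0% were higher and 38.0% lower, the shares to set beside each count of this paragraph. Of 7 measured dendritic cell markers 3 rose and 1 fell. The list mean was 5.08 to 5.16 in wild type and 6.50 to 6.57 in the Hdac3 deleted samples. The large rises were those of Itgax (4.29) and Batf3 (5.31), while Flt3 rose by 0.38. Xcr1, Zbtb46 and Cd209a lay in the background range in both groups and were not called. Of 6 natural killer cell markers 4 rose, the list mean going from 4.97 to 5.17 in wild type to 6.91 to 6.93, with Ncr1, the defining marker, and Klra8 in the background range in both groups. The largest rise there was that of Tyrobp (7.74, at least 206-fold), an adaptor gene that myeloid cells also express. Nkg7 rose by 1.65, from 8.19 to 9.84, and Eomes by 0.77, and Klrk1 was at least 1.41-fold higher. Of 7 B cell markers 2 were higher and 1, Blk, lower within the background range. Cd22 rose by 2.45, from 6.98 to 9.43, and Cd79b by 1.01. The list means were 5.27 to 5.49 in wild type and 5.67 to 5.80 in the Hdac3 deleted samples. Ms4a1 and Pax5 lay in the background range in both groups. Of 5 thymocyte markers 1 was higher and 1, Dntt, lower within the background range, with list means of 4.98 to 4.99 and 4.92 to 5.05, and Rag1, Rag2 and Ptcra lay in the background range in both groups. Erythroid markers rose in 1 of 4, and of 2 CD8 genes Cd8b1 fell by 1.12 and Cd8a differed by 0.10 (adjusted p = 0.475).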

How the data were processed

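Per the labels, normalization by the authors was RMA in MAYDAY 2.12, followed by Student's test. The deposited table holds log2 values, 1 per probe set and array. RMA scales the arrays to each other, so differences in total RNA per cell are not visible, although the deposited medians still differed (6.28 to 6.29 in wild type, 6.43 to 6.47 in the Hdac3 deleted arrays). The 64 control probe sets were left out. A gene was read from its brightest probe set with 1 symbol, and its symbol was checked through the RefSeq gene table (GRCm38.p6). Levels within 2.37 to 5.16, the span of 27 bacterial controls, count as background, and folds against it are written "at least".

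Sample titles gave the groups. In place of the authors' test, a two-sided limma fit (version 3.58.1, lmFit and eBayes, R 4.3.3) was used, with Benjamini-Hochberg adjustment over 22626 probe sets; the fit was tested on simulated data. The number of arrays limits the precision. Probe sets of 1 gene were compared by limma on their within-array difference, a test added after the values were seen. Motif searches and plots used Python 3.11.15, pandas 2.3.3 and matplotlib 3.10.9.

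The members and lists were chosen with earlier results of these data known. All members and their partners and paralogs may be named, with up to 4 genes of smallest p per other list. Hdac3, Foxp3, Il2ra and the CD3 genes served as checks. Outside this rule, Hdac11, Cd4, Irs2, Il7r, Gadd45a, Runx1, Btg1, Tsc2, Pcna and Tyms were chosen after their values were seen. So were the cell type markers given as lying in the background range. Deviations of same-numbered samples correlated at 0.09, 0.08 and -0.19, and those of differently numbered samples at -0.25 to 0.21. With 3 samples per group these values cannot settle whether the numbers pair samples, and no pairing was used in the main fit. Alternatives were the methods' test, the number as a block, 3 further normalizations, array weights, a prior with trend and robust settings, a filter on dim probe sets, omission of each sample in turn, other choices of probe sets and another T cell reference.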

Additional observations from a re-analysis of the deposited data

How the results depend on the processing

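The counts of 8 genes lower and 1 higher, and of 20 probe sets lower and 3 higher, were the same with the replicate number as a block, and the block changed no call among the 9 genes. Without probe sets that can match several transcripts, 6 genes and 14 probe sets remained, since Bach2, Lef1 and Bcl11b have no other set. Of these genes 5 were lower, 4 of them at least 2-fold, and 13 probe sets were lower and 1 higher. On the scale relative to the CD3 genes this choice of sets moved Foxp1 to -0.39, and the 5 T cell surface genes as reference moved Bcl11b to -0.15. Over the alternatives that keep a gene's brightest set, the difference of Id3 ran from -3.32 to -2.97, that of Bach2 from -2.21 to -1.86, that of Satb1 from -0.90 to -0.53 and that of Id2 from 2.39 to 2.76. Leaving out the sets that can match several transcripts removes that Id2 set and leaves the one with a rise of 3.24. Over all genes the median was -0.17 as deposited, -0.33 after median centring and 0.00 after cyclic loess. The causes were not tested. Signal near background limits the dimmest Foxo1 set and the genes given as bounds.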

Other observations

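The genes whose pattern over the 6 samples was closest to each factor were found from the values minus their wild type mean. The measure was the root mean square distance over the samples, and it follows mainly the difference between groups. Cd96, a receptor of the immunoglobulin superfamily, was closest to Id3, at a distance of 0.083 log2 and with a fall of 3.23. Rgs10, a regulator of G protein signalling, was closest to Bach2 (0.035), Ptprcap, which encodes a protein associated with CD45, to Foxp1 (0.022), and Dnajb1, a chaperone gene, to Bcl11b (0.023). Tes was closest to Lef1 (0.064), Nol7 to Satb1 (0.030) and Nipsnap1 to Foxo1 (0.029). Glul, the glutamine synthetase gene, was closest to Id2 (0.065), with a rise of 2.51. Tktl1 was closest to Tox (0.129), but it fell into the background range.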
